A study of Mus musculus with 2 samples.

Results

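Mir191 and Mir425 are microRNA genes that lie next to each other on mouse chromosome 9 and are often used as reference genes in microRNA measurements. They were chosen by their Ensembl gene identifiers, and both of the 2 members were found among 2202 annotated microRNA genes. Reads were counted in 2 microRNA sequencing libraries (inserts under 30 nt) labelled as gastrocnemius, a calf muscle; the marker genes of replicate 2 go against that label. Per the labels the mice were male B6CASTF1/J pups, hybrids of C57BL/6 and CAST mice, aged 4 days. The labels describe 1 group with replicates 1 and 2, from animals numbered 3 and 4 with separate biosamples under a shared donor identifier, so the only comparison is between these libraries.

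A microRNA gene is transcribed into a long primary RNA, from which Drosha cuts a hairpin and Dicer then cuts a duplex of about the length of a mature microRNA. One arm of the duplex is loaded into an Argonaute protein and pairs with target messenger RNAs mainly through its seed, bases 2 to 8. MicroRNAs cut from neighbouring hairpins can share a primary transcript, yet each hairpin is processed, loaded and degraded on its own. Mir191 is expressed in many tissues, which is why it is widely used to normalise microRNA PCR.

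The mature sequences are shown because they fix which targets and which relatives each gene has. They are from RefSeq (GRCm38.p6), which held both genes, are written 5′ to 3′, and have the seed in capitals.
mmu-miR-191-5p: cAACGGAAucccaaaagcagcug
mmu-miR-191-3p: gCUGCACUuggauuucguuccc
mmu-miR-425-5p: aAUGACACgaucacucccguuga
mmu-miR-425-3p: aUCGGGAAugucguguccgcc
The 4 seeds differ from each other, so the cluster is not a seed family. Among 1738 mature sequences in the table, neither miR-191 arm nor miR-425-3p had a seed partner. The seed of miR-425-5p was shared with 1 other sequence, miR-489-3p.
mmu-miR-489-3p: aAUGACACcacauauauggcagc
These 2 sequences are identical over the first 8 bases and at 12 of 23 positions overall. Mir489 had 4 reads in replicate 1 and 0 in replicate 2, where a count of 0 allows up to 0.976 CPM (CPM is the count divided by all sense reads of microRNA genes in the library, times 1e6). Of the 2 genes with this seed, Mir425 thus held nearly all counted reads.

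The hairpins are shown because reads are counted over the whole of them. Both arms are in capitals.
Mir191 hairpin: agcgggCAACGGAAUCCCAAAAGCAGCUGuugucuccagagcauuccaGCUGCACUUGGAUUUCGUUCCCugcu
Mir425 hairpin: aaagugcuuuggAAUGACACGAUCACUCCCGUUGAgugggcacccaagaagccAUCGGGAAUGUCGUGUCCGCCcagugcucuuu
Each count thus adds the reads of the 5p and the 3p arm, which the deposited counts do not separate. Neither gene shared a 22 nt stretch with a microRNA gene annotated elsewhere, so other annotated microRNA genes gave no reason to set their reads aside as multimapping.

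Mir191 (ENSMUSG00000105497.1) lies at chr9:108568319-108568392 and Mir425 (ENSMUSG00000065579.1) at chr9:108568777-108568861 in mm10, both on the plus strand. The hairpin genes are 74 and 85 bases long and 384 bases apart. GENCODE M21, the annotation of the counts, places all bases of both in the single exon of a transcript of the long noncoding RNA gene 4833445I07Rik (108567533 to 108569174). It is on the plus strand too, but the deposited counts list microRNA genes only, so it was not among the counted genes. In a second transcript of that gene, with 2 exons, Mir191 lies in the intron and Mir425 beyond the end. The protein-coding gene Dalrd3, whose product takes part in methylation of transfer RNA, is usually named as their host. In GENCODE M21 it starts 1024 bases downstream of Mir425 and holds neither gene. The RefSeq entry for Dalrd3 (108567484 to 108572773) spans both. Whether the pair is intronic in Dalrd3 therefore differed between annotations.

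**Figure D1:**
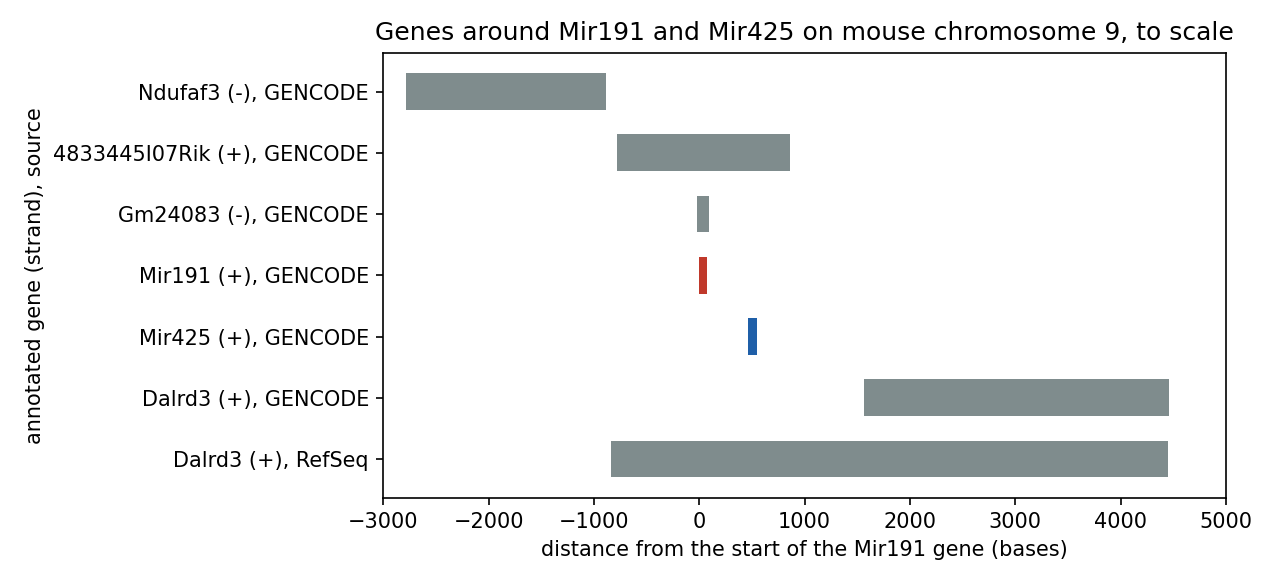
Genes around Mir191 and Mir425, drawn to scale by distance in bases from the start of Mir191, with strand and annotation. Gm24083 covers Mir191 on the other strand, and Dalrd3 covers the pair in RefSeq but starts downstream of it in GENCODE M21.

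The strand of the counts decided whether Mir191 was seen at all. Gm24083, a microRNA gene annotated on the minus strand (108568295 to 108568414), covers all 74 bases of Mir191. In the sense column Mir191 had 18210 reads in replicate 1 and 22491 in replicate 2. In the unstranded column it had 0 in both. Counts of this layout set a read over 2 of the counted genes aside as ambiguous. Its reads came to 3.39% of the 537662 ambiguous reads of replicate 1 (95% exact Clopper-Pearson interval 3.34 to 3.44%) and 2.60% of the 864996 of replicate 2 (2.57 to 2.63%). Mir425, which has no partner on the other strand, had the same counts in both columns.

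The antisense column gave a check on these reads. Gm24083 had 0 sense reads and, in the antisense column, 18210 and 22491 reads, the same numbers as Mir191. So all reads on the plus strand of the longer Gm24083 were those assigned to Mir191. Mir191 itself had 0 antisense reads, which allows up to 0.0165% of its sense reads in replicate 1 and 0.0133% in replicate 2. Mir425 also had 0, which allows up to 0.109% and 0.140%. Of 64 annotated genes with a microRNA gene on the other strand, 29 had at least 10 sense reads, and 26 of those were at 0 in the unstranded column of both libraries. By CPM, Mir191 was at place 3 of the 26 in replicate 1 and at place 4 in replicate 2.

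The libraries differ widely, and 1 of them goes against its tissue label. The library labelled replicate 1 held 4458853 sense microRNA reads and the library labelled replicate 2 held 3073086. Mir206, which is restricted to skeletal muscle, had 652657 and 101 reads, and the heart-restricted Mir208a had 59 and 29718. The 9 skeletal muscle markers, none of them at 0, summed to 14.7% and 0.479% of reads, nearly all of it Mir206 in replicate 1. The other 8 went the other way in sum, with 0.0906% and 0.476%, led by Mir499 (438 and 2809 CPM) and Mir208b (240 and 1412 CPM), which lie in myosin genes of slow muscle and heart. Mir486 followed at 102 and 478 CPM. Mir133b, the neighbour of Mir206, had 427 and 10 reads. Mir133a-1 (34 and 16 reads), Mir1a-1 (13 and 6), Mir1a-2 (87 and 156) and Mir133a-2 (2 and 2) added little to that sum. At least 1 of Mir133a-1 and Mir1a-2 has a 22 nt stretch that recurs at another annotated locus, so counts of this pair are uncertain. Mir1a-1 and Mir1a-2 are copies at separate loci, as are Mir133a-1 and Mir133a-2. Reads alike at both copies can be set aside as multimapping, so low counts of these genes do not show low levels. The muscle marker sums leave such reads out. The single heart marker held 0.00132% and 0.967%. Markers of endothelium held 2.54% and 6.62%, of smooth muscle 2.17% and 4.90%, of white blood cells 0.0793% and 0.429%, of red blood cells 0.0220% and 0.0979%, of fibroblasts 0.591% and 0.281% and of neurons and glia 0.142% and 0.0425%, with 6 of the 10 genes of that last list at 0 in both. Those 6 are Mir9-1 to Mir9-3 and Mir124a-1 to Mir124a-3, copies at separate loci whose reads can be set aside as multimapping. Their counts of 0 do not show absence, and the sum for neurons and glia leaves such reads out. The part of tissue or cell make-up in the values of Mir191 and Mir425 was not tested, and in such tissue RNA fewer cells of a type and less RNA per cell cannot be told apart.

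Mir191 was an abundant gene in both libraries. Its 18210 reads in replicate 1 were 4084 CPM, a share of 0.408% (0.403 to 0.414%), and its 22491 reads in replicate 2 were 7319 CPM, a share of 0.732% (0.722 to 0.741%). The level was higher in replicate 2, by 1.79-fold in CPM, and the counting intervals do not overlap. The gene ranked at 40 in replicate 1 and at 24 in replicate 2. It stood at 34.1 times the median level of the 341 genes with at least 10 reads in replicate 1, and at 108.7 times the median of the 340 such genes in replicate 2. The mean of the libraries was 5701 ± 2287 CPM (SD, n = 2), a coefficient of variation of 40.1%.

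Mir425 was counted several times less often, and its CPM differed less between the libraries than that of Mir191, though not with every scaling given further on. Its 2741 reads in replicate 1 were 615 CPM, a share of 0.0615% (0.0592 to 0.0638%), and its 2136 reads in replicate 2 were 695 CPM, a share of 0.0695% (0.0666 to 0.0725%). The CPM of replicate 2 was 1.13-fold higher. The gene ranked at 105 and 82, at 5.13 and 10.3 times the median of genes with at least 10 reads. The mean was 655 ± 56.8 CPM (SD, n = 2), a coefficient of variation of 8.67%. Reads were not divided by gene length, since a read covers about the whole mature microRNA. Adapter ligation depends on the sequence of a microRNA, so a difference in reads between the 2 genes is not a difference in molecules.

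**Figure D2:**
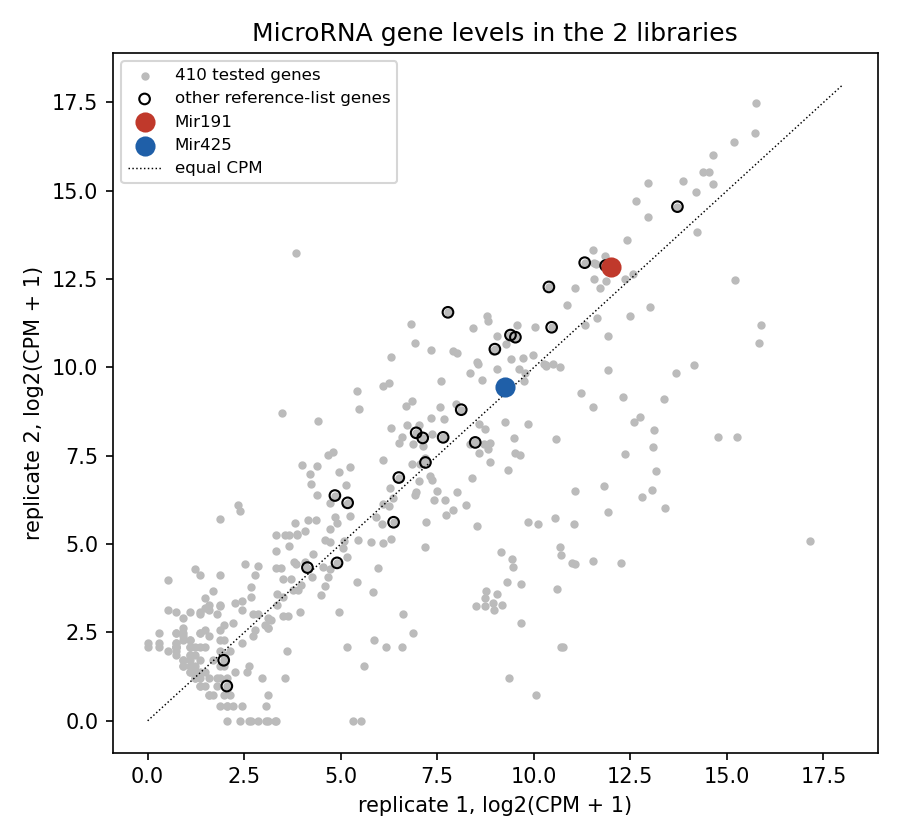
Level of each of 410 tested microRNA genes as log2(CPM + 1) in replicate 1 (x axis) and replicate 2 (y axis), with the reference-list genes other than Mir191 and Mir425 ringed. Mir191 lies above the line of equal CPM (4084 and 7319 CPM) and Mir425 close to it (615 and 695 CPM).

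The neighbours of each gene in the order of levels differed between the libraries. In replicate 1 Mir191 followed Mir10b (5077 CPM) and Mir493 (4865 CPM) and preceded Mir376c (3895 CPM) and Mir21a (3889 CPM), and none of their counting intervals overlapped its own. In replicate 2 it followed Mir30d (7626 CPM) and Mir30e (7552 CPM) and preceded Mir130a (6461 CPM) and Mir744 (5807 CPM), again without overlap. Mir493, one place above Mir191 in replicate 1, ranked at 222 in replicate 2. Mir376c has a 22 nt stretch that recurs at another annotated microRNA locus, so its count and place are uncertain.

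Around Mir425, several neighbours could not be ordered. In replicate 1 its interval of 592 to 638 CPM overlapped those of Mir667, Mir140, Mir148a and Mir615, and Mir148a had 2740 reads against its 2741. In replicate 2 its interval of 666 to 725 CPM overlapped those of Mir29a, Mir150 and Mir30c-2 but not that of Mir298 (592 to 648 CPM). Mir140 had 1619 CPM and Mir148a 349 CPM in replicate 2, where Mir425 had 695 CPM. The count and place of Mir30c-2 are uncertain, since it too has a 22 nt stretch that recurs at another annotated microRNA locus.

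With the main scaling, Mir191 was slightly higher in replicate 2 and Mir425 slightly lower. Library sizes were scaled by the trimmed mean of M values (TMM), which takes most genes to be equal between the libraries. On that scale the log2 ratio of replicate 2 over replicate 1 was 0.22 for Mir191 (95% counting interval 0.19 to 0.24), a 1.16-fold difference. For Mir425 it was −0.45 (−0.53 to −0.37), 1.37-fold lower. The median over the 410 tested genes was not 0 but −0.33. A lower ratio than that of Mir191 was seen for 59.8% of them, and than that of Mir425 for 48.5%. Neither Mir191 nor Mir425 passed the threshold of a 2-fold difference with an adjusted p under 0.05. Of the 410 tested genes, 53.7% passed it (220 genes).

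Both differences were larger than counting noise. By the exact binomial test with Benjamini-Hochberg adjustment over 410 genes, the adjusted p was 2.6e-50 for Mir191 and 5.2e-27 for Mir425. An adjusted p under 0.05 at any size was reached by 76.8% of tested genes, so the p alone does not set the 2 genes apart. The test compares 2 libraries, not conditions, and does not cover the spread between animals. The edgeR exact test, given the dispersion of the pair, had an adjusted p of 1 for both genes and called 0 of 410 genes, with 28 at an unadjusted p under 0.05. Its dispersion of 1.23 comes from the same 2 libraries whose difference it tests, which makes calls unlikely. Their absence therefore does not show that the libraries are alike. Absolute log2 ratios smaller than that of Mir191 were seen for 31 of 410 genes (7.56%), and smaller than that of Mir425 for 72 (17.6%).

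The sign for Mir425 depended on how the libraries were scaled. With DESeq2 size factors its log2 ratio was −0.17, with total reads 0.18 (0.09 to 0.26) and with the upper quartile 1.12. Mir191 was higher in replicate 2 under all 4 scalings, at 0.49, 0.84 and 1.79 under the same 3. Under the upper quartile both genes were called higher, as were 209 of the 410 tested genes, while 84 were called lower. From TMM, the 3 scalings moved the median of all tested genes by 0.26, 0.59 and 1.52, and the share of calls that were higher in replicate 2 from 32.7% to 44.1%, 54.0% and 71.3%.

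A scaling shifts all genes nearly alike, so the members kept their distance from the median of all tested genes. Mir191 lay 0.55 above it with TMM and 0.60 above it with the upper quartile, and Mir425 lay 0.12 and 0.07 below it. That median itself rested on 1 group of genes. The imprinted domain between Dlk1 and Dio3 on chromosome 12 holds many microRNA genes, among them Mir127, which had 269519 reads in replicate 1 and 7304 in replicate 2. Over the 355 tested genes outside it, the median log2 ratio with TMM was 0.05, and Mir191 then lay 0.16 above and Mir425 0.50 below. With that domain left out of the denominator, Mir191 had 6088 and 7391 CPM. Mir425 had 916 and 702 CPM, so its direction in CPM turned. The log2 ratio of these CPM was 0.28 for Mir191 and −0.38 for Mir425, so Mir425 then differed more between the libraries than Mir191, as it did with TMM.

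**Figure D3:**
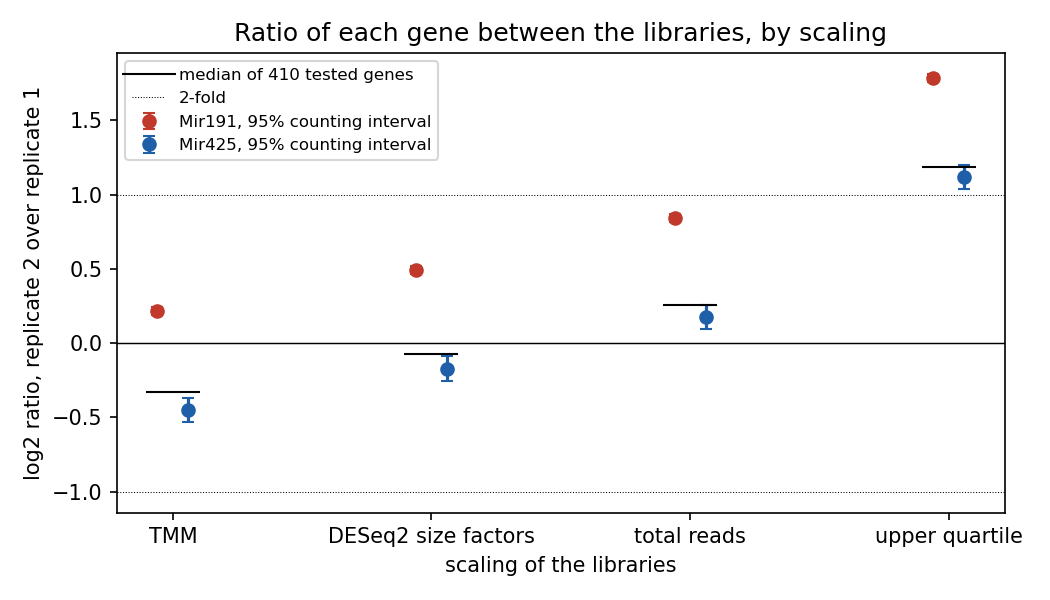
Log2 ratio of replicate 2 over replicate 1 (y axis) for Mir191 and Mir425 under 4 scalings of the libraries (x axis), with 95% counting intervals and the median of 410 tested genes as a bar. Mir191 is above the median and Mir425 close under it each time, while the sign for Mir425 turns from −0.45 with TMM to 0.18 with total reads.

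The ratio of the 2 genes within a library does not depend on scaling, and it differed. Mir425 had 15.1 reads per 100 Mir191 reads in replicate 1 and 9.50 in replicate 2. Its share of the pair's 20951 reads in replicate 1 was 13.1% (12.6 to 13.5%), and its share of the 24627 in replicate 2 was 8.67% (8.32 to 9.03%). The log2 change was −0.66 (−0.75 to −0.58), a 1.58-fold lower ratio in replicate 2 (two-sided Fisher's exact test, p = 8.4e-52). That p covers counting error in 2 libraries only. The mean ratio was 12.3 ± 3.93 reads per 100 (SD, n = 2).

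A change of that size was common among neighbouring microRNA genes. The data held 80 pairs of consecutive genes on 1 strand within 10 kb, with at least 10 reads for each gene in each library. The median absolute log2 change of the ratio within a pair was 0.90, and 32 of 80 pairs changed less than Mir191 and Mir425. At 37 pairs the ratio changed at least 2-fold. The smallest change was 0.04, for Mir93 and Mir106b of the growth-promoting Mir106b cluster, while Mir25 and Mir93 of the same cluster changed by 1.20. The largest was 7.24, for Mir206 and Mir133b. Leaving out the pairs of the Dlk1-Dio3 domain and those with a shared 22 nt stretch left 26 pairs with a median of 0.61, of which 14 changed less than Mir191 and Mir425. These pairs were named after their values were seen, and no test was made of them.

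**Figure D4:**
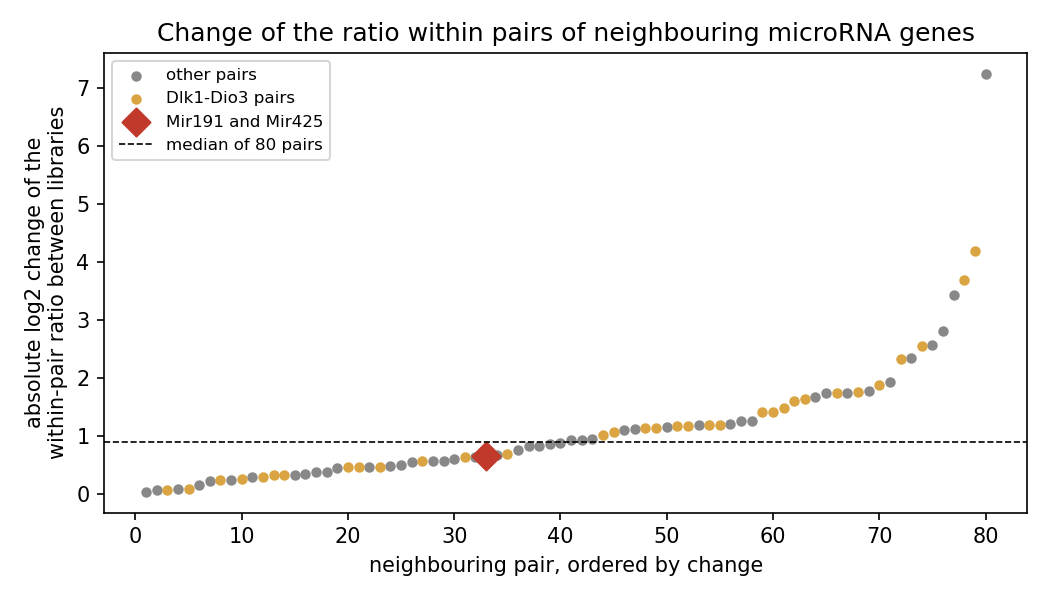
Absolute log2 change of the within-pair ratio between the libraries (y axis) for 80 pairs of neighbouring microRNA genes in order of size (x axis). The pair of Mir191 and Mir425 (0.66) lies under the median of 0.90.

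How microRNA genes in common use as references differed depended on the scaling. The list held 25 genes, Mir191 and Mir425 among them, all with at least 10 reads in total. With TMM, 3 were higher in replicate 2 and 4 were lower, against backgrounds of 17.6% and 36.1% of all tested genes, and the list's median log2 ratio was 0.21 against −0.33 over all. With DESeq2 size factors 6 were higher and 2 lower, beside 100 and 127 of all 410 tested genes. With total reads the list had 10 and 0, beside 135 and 115 of all. With the upper quartile it had 20 and 0, Mir191 and Mir425 among the 20, beside 209 and 84. With TMM, values ran from −1.98 for Mir26a-1, which had 14 and 3 reads, to 3.16 for Mir107. Both have a 22 nt stretch that recurs at another annotated locus, so their counts are uncertain, as are those of 9 other members of the list.

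Among the 14 reference genes without a shared stretch, Mir191 and Mir425 stood with TMM at 0.22 and −0.45. Only Mir186 (−0.51) and Mir152 were lower than Mir425. Mir152 was lowest at −1.23 and Mir93 highest at 1.26. Mir26b, the most abundant of them at 13480 and 24018 CPM, stood at 0.21 beside Mir191. Mir30e (3714 and 7552 CPM) stood at 0.40, and Mir151 (2551 and 7999 CPM) was called at 1.02. The smallest absolute log2 ratio was that of Mir361, at 0.05. In the order of absolute log2 ratios Mir191 was at place 4 and Mir425 at place 7. With DESeq2 size factors their places were 6 and 1, with total reads 7 and 2, and with the upper quartile 7 and 3. The order of these genes by absolute ratio thus changed with the scaling.

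**Figure D5:**
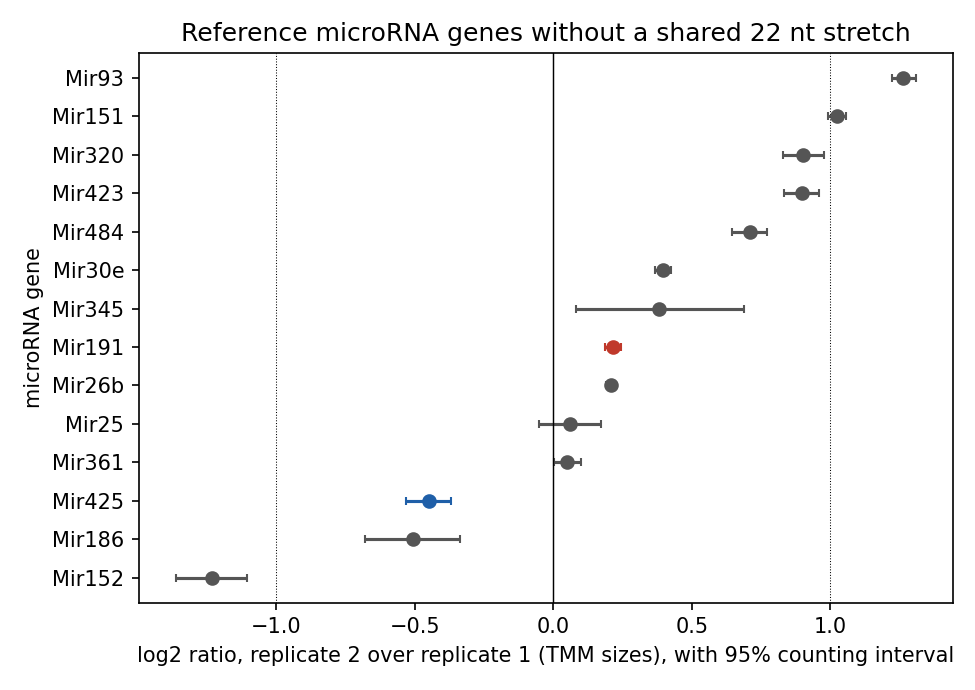
Log2 ratio of replicate 2 over replicate 1 with TMM sizes (x axis) and 95% counting intervals for 14 reference microRNA genes without a shared 22 nt stretch (y axis). Mir191 (0.22) and Mir425 (−0.45) lie on either side of 0 and inside the 2-fold lines.

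Using a member as the reference gave different pictures of the same libraries. With Mir191 as the reference, 74 of 410 tested genes were at least 2-fold higher in replicate 2 and 174 at least 2-fold lower. With Mir425 as the reference, the numbers were 129 and 128. With TMM they were 85 and 155.

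The genes with ratios most like each member were found among 186 genes with at least 100 reads in each library, by the absolute difference of log2 ratios over these 2 libraries. For Mir191 they were Mir26b, Mir181b-2, Mir339, Mirlet7a-1 and Mirlet7i, all within 0.062 of it. For Mir425 they were Mir744, Mir125b-2, Mir186, Mir3102 and Mir130a, all within 0.086. The counts of Mir181b-2, Mirlet7a-1 and Mir125b-2 are uncertain because each has a 22 nt stretch that recurs at another annotated microRNA locus. Mir26b had 60105 and 73808 reads and a log2 ratio of 0.21. Mir744 had 23523 and 17846 reads and a log2 ratio of −0.49, beside −0.45 for Mir425. The members' own log2 ratios, 0.22 and −0.45, lie further apart than these distances, so the 2 lists could not share a gene.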

How the data were processed

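Per the deposited description files, counts were made on assembly mm10 with annotation M21. Aligner and trimming: not given in the sources used here. Values are raw counts per gene as deposited, in separate columns for unstranded, sense and antisense reads. The 4 summary lines, which name no gene, stayed out of library sizes. They left 52.3% and 42.4% of 8522350 and 7240126 reads as sense microRNA reads, and multimapping reads took 35.7% and 45.1%. Columns of other samples used numbered 0.

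The sense column was used. TMM sizes came from genes with at least 10 reads in total (edgeR 4.0.16, R 4.3.3; DESeq2 1.42.0 as an alternative). Log2 ratios had a prior count of 1. Each gene had a two-sided exact binomial test, checked on simulated Poisson counts. Those counts hold counting noise only, so the check does not cover the spread between animals. Intervals (95%) are exact, except that of the log2 change of the pair's ratio, which is a normal approximation. The limit for a count of 0 is 3 counts. Intervals and limit cover counting error only, since no molecular identifiers are named. Labels do not say beyond biosample and animal numbers how independent the libraries are. Genes named were the members, seed partners, 2 neighbours in rank on each side, 5 genes of nearest ratio and the most abundant reference genes. Mir499, Mir208b, Mir486, Mir133b, the Mir133a and Mir1a genes and those of the lowest and highest values were named after their values were seen. Members and lists were chosen with earlier results of these data known. Python 3.11.15, scipy 1.17.1, numpy 2.4.6, pandas 2.3.3 and matplotlib 3.10.9 were used.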

Additional observations from a re-analysis of the deposited data

How the results depend on the processing

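No paired analysis was possible because the labels give a single group. The log2 ratio of Mir191 stayed positive in every setting run, from 0.08 with the Dlk1-Dio3 genes left out of the scaling to 1.79 with the upper quartile, the only setting in which it was called. The log2 ratio of Mir425 turned positive with total reads (0.18) and with the upper quartile (1.12, called); in the other settings it lay between −0.58 and −0.08. In the unstranded column Mir191 was at 0 CPM, so neither its ratio nor the ratio of the pair could be computed there, and the mean of Mir425 was 833 CPM. With all reads of a library in the denominator the means were 2622 CPM for Mir191 and 308 CPM for Mir425, and without the Dlk1-Dio3 genes in the denominator Mir425 had 809 CPM. The number of genes called was 220, and between 173 and 293 under the other binomial settings. The minimum of reads changes which genes are tested, and 173 came with at least 100 reads in total and 228 with no minimum. The number called was 0 by the edgeR exact test, whose dispersion came from the same pair. The median log2 ratio of the reference list moved from 0.21 to 0.49 with DESeq2 size factors, 0.83 with total reads, 1.78 with the upper quartile and 0.30 without genes sharing a 22 nt stretch. The median change over neighbouring pairs kept within 1.5-fold of 0.90 in all 6 alternatives; the 2 that left out genes sharing a stretch, and Mir191 or Mir425 as the reference, were added after seeing the data. With each library left out, the means are the values of the other.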
